A study of Mus musculus with 3 samples.

Results

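A set of 10 genes that mark oligodendrocyte precursor cells was followed through 3 libraries of single nuclei from differentiating mouse neurospheres. The genes were *Pdgfra*, *Cspg4*, *Calcrl*, *Nxph1*, *Megf11*, *Pcdh15*, *Lhfpl3*, *Xylt1*, *Mmp16* and *Lnx1*, picked by symbol from a fixed list, and they are 10 of the 30559 genes in the count tables. All 10 had unique molecular identifiers (UMIs, one per captured transcript) in every library. The neurospheres came from the subventricular zone of newborn pups on a C57BL/6 background and were differentiated to day 15 before their nuclei were sorted and sequenced with a droplet kit that reads the 3′ end. There was 1 library for each condition, namely a control, CBPf/f cells with CBP ablated and p300f/f cells with p300 ablated, each from a pool of about 15 cultures. The sample labels give tamoxifen as the treatment of all 3 libraries, whereas the methods describe a lentivirus that carries Cre, set against a lentivirus that carries a red fluorescent protein alone in the control. The mouse line behind the control is not stated in the sources used here. With 1 library for each condition no difference has a replicate check, no test was run, and the intervals given with values are 95% intervals that cover counting error only.

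CBP and p300 are related acetyltransferases that add acetyl groups to histones and act as coactivators of many transcription factors. Oligodendrocyte precursor cells (OPCs) divide in response to platelet-derived growth factor (PDGF), which they bind through the receptor encoded by *Pdgfra*, and they carry the proteoglycan NG2, the product of *Cspg4*. On commitment to the oligodendrocyte fate they withdraw the PDGF receptor and NG2 and pass through a committed precursor (COP) stage before they express the proteins of myelin.

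The control, CBP-ablated and p300-ablated libraries held 4884, 3017 and 4648 nuclei with 16312170, 12748336 and 18876682 UMIs, and between 1 and 7 barcodes were shared by any pair of libraries. Levels are given as CPM, that is the UMIs of a gene per 1000000 UMIs of the library or class, and 3 UMIs of a whole library, the limit that a count of 0 allows, are 0.159 to 0.235 CPM. The ablated genes do not check the labels, since neither stood lower in the library where it was ablated. Reads of exons and introns are counted together, and the excised exon is not resolved. The paper states that recombined *Ep300* gives no mature mRNA or protein, and why its level was not lower here was not tested. *Crebbp*, which encodes CBP, stood at 335, 369.5 and 365 CPM in the control, CBP-ablated and p300-ablated libraries, and *Ep300*, which encodes p300, at 114, 136 and 115 CPM. Values in groups of 3 follow this order of libraries throughout.

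The genes lie on 7 chromosomes (GRCm38, GENCODE M21), and all 10 code for protein. *Pdgfra* (chr5:75152292-75198215, plus strand) and *Cspg4* (chr9:56865033-56899870, plus strand) are the compact ones, while *Pcdh15* (chr10:73099342-74649737, plus strand) and *Lhfpl3* (chr5:22746059-23275597, plus strand) are spread over long introns. *Calcrl* is at chr2:84330626-84425411, minus strand, *Nxph1* at chr6:8948431-9249032, plus strand and *Megf11* at chr9:64385626-64709205, plus strand. *Xylt1* is at chr7:117380979-117673580, plus strand, *Mmp16* at chr4:17852893-18119145, plus strand and *Lnx1* at chr5:74592447-74702912, minus strand. Exons make up 0.607% to 34.2% of these spans, so most of the bases from which a nuclear read can come are intronic. Other genes of the count tables overlap *Pdgfra*, *Pcdh15*, *Lhfpl3* and *Lnx1*, and the strand setting of the counting is not stated in the sources used here, so reads shared with those partners cannot be told apart.

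Promoters are shown because the levels of the 10 genes varied together across the classes of nuclei described further on. The RefSeq promoter table (GRCm38.p6, from 250 bases before to 50 bases after the start of transcription) held 7 of the 10, and *Megf11*, *Xylt1* and *Mmp16* had no entry. A total of 3 motifs were searched on both strands: CAGCTG, an E-box of the kind bound by basic helix-loop-helix factors, AACAAT, a core of SOX sites, and TATAAA, the TATA box. Matches to the reverse complement counted as well. The E-box was in *Lhfpl3*, at 158 and 149 bases before the start, and in *Pcdh15*, at base 9 after it, against 16.3% of all 32851 promoters of the same length. AACAAT was in *Calcrl* alone, 221 bases before the start, against 10.7% of all, and TATAAA in *Pcdh15* alone, 33 bases before the start, against 13.6%. The GC content of the 7 promoters ran from 50.7% to 66%. No motif was shared by most of the genes, and a match is a description of letters and not of a bound site. Printed here are 4 promoters, 5′ to 3′, with the matched motifs in capitals. They are those of *Pdgfra* (chr5:75152001-75152300, plus strand), as the receptor that defines the cells and as an example without a match, *Lhfpl3* (chr5:22745804-22746103, plus strand), *Pcdh15* (chr10:73821617-73821916, plus strand, an internal start that lies 722525 bases inside the annotated gene) and *Calcrl* (chr2:84425217-84425516, minus strand).
Pdgfra: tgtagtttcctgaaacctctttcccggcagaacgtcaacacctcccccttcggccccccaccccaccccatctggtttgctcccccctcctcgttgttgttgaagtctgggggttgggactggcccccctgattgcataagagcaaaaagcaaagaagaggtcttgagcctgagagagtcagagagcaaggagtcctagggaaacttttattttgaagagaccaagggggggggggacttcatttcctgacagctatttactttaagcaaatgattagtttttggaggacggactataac
Lhfpl3: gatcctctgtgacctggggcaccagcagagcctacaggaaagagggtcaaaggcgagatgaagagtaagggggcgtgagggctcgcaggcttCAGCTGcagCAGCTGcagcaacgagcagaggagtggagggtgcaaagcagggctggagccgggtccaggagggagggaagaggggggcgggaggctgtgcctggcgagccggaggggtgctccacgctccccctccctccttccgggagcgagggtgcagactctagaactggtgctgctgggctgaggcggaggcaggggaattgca
Pcdh15: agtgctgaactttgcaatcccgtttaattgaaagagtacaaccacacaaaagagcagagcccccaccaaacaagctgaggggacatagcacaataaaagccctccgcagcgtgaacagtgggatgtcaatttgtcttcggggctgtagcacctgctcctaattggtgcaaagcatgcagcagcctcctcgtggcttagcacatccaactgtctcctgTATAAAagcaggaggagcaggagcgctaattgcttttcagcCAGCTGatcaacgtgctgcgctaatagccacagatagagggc
Calcrl: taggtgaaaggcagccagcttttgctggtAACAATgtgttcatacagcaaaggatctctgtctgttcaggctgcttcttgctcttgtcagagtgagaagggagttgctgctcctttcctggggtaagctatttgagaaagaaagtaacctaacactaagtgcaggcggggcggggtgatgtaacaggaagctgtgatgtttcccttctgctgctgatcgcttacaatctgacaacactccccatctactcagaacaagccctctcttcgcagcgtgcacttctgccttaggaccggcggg

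Nuclei were clustered without the 10 genes, and a cluster was given a class name only from marker lists that hold none of them. The OPC-like class met 9 of its 10 markers (among them *Dscam*, *Tnr* and *C1ql1*) and held 1119, 437 and 1797 nuclei of the control, CBP-ablated and p300-ablated libraries. These were 22.9% (21.7 to 24.1), 14.5% (13.2 to 15.8) and 38.7% (37.3 to 40.1) of the nuclei (exact binomial intervals). These shares depended on the clustering. With each library clustered by itself the class held 1115 of 4884, 804 of 3017 and 1749 of 4648 nuclei. There the OPC-like class was not a smaller share of the CBP-ablated library than of the control. Beside it stood a COP-like class made of 2 clusters, called *Bmp4*-led, after its leading gene, and *Enpp6*-high, after a COP marker that is not its leading gene (*Enpp6* stood at 404, 366 and 331 CPM in the former and 1142, 908 and 1013 CPM in the latter), an oligodendrocyte-like class, a proliferating-like class, and a class here called cluster-5-like, led by *Kcnj6*, which carries the markers of the study's immature neuron cluster. The astrocyte-like class held 1278 nuclei, all of them in the control library, and unnamed cluster 12, led by *Gpr149* and *Syt1*, held 9, 207 and 2 nuclei. The data did not go against the label of the gene list, since every one of the 10 genes had its highest median level over the 3 libraries in the OPC-like class, out of 10 named classes. The study drew on these same libraries when it listed markers of its precursor cluster, and all 10 genes are on that list, so this ranking is a description and not independent evidence. The study's own OPC cluster was named by *Bcas1*, *Sirt2* and *Enpp6*, which are markers of the COP-like class here. Another of its clusters was read as a mix of neuronal progenitors and OPCs. The OPC-like name here is thus not the study's OPC name.

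The receptors and the NG2 proteoglycan are described first. *Pdgfra*, the receptor for PDGF-A, stood in OPC-like nuclei at 719.8 CPM (control), 787 CPM (CBP-ablated) and 899.8 CPM (p300-ablated). The proliferating-like class came next, at 574, 627 and 574 CPM, and its range did not overlap that of the OPC-like class. In oligodendrocyte-like nuclei the level was 14.2, 17.3 and 40.4 CPM. *Cspg4*, the core protein of NG2, stood at 200.4, 163 and 255 CPM in OPC-like and 137, 98.4 and 156 CPM in proliferating-like nuclei, again without overlap. *Calcrl*, a receptor that pairs with RAMP proteins to bind adrenomedullin and calcitonin gene-related peptide, stood at 237, 213 and 208 CPM in OPC-like nuclei. Unlike the other members it had the COP-like class as its neighbour, at 145, 99.8 and 145 CPM.

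Among the secreted and adhesion proteins, *Lhfpl3*, a tetraspan protein of the LHFPL family, stood at 14609, 14943 and 15456 CPM in OPC-like nuclei. It was nearly as high in the cluster-5-like class, at 12943, 11854 and 13294 CPM, just below the OPC-like range. *Nxph1*, a secreted ligand of neurexins, did not separate these classes. It stood at 4466, 4324 and 4891 CPM in OPC-like and 4339, 2654 and 4721 CPM in cluster-5-like nuclei, and the ranges overlapped. *Pcdh15*, a protocadherin known from the tip links of hair cells, stood at 3931, 3797 and 3764 CPM in OPC-like and 2964, 4573 and 3597 CPM in neuron-like nuclei. The neuron-like value of the CBP-ablated library was above every OPC-like value, so *Pcdh15* did not tell the 2 classes apart by level. *Megf11*, a membrane protein with EGF-like repeats that spaces neurons of one type in the retina, stood at 777, 1030.4 and 921 CPM in OPC-like nuclei. Its next named class, proliferating-like, was at 336, 528 and 479 CPM. That was the widest gap to a next named class among the 10 members, with an OPC-like median 1.92 times as high. Unnamed clusters were left out of this ranking. In the 207 cluster 12 nuclei of the CBP-ablated library *Megf11* stood at 1255 CPM, above every OPC-like value.

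For each of the 3 enzymes the proliferating-like class came next after the OPC-like one. *Xylt1*, the xylosyltransferase that starts glycosaminoglycan chains on proteoglycans, stood at 2959.9, 3028 and 3755 CPM in OPC-like and 2509.8, 1968 and 2998 CPM in proliferating-like nuclei, with overlapping ranges. *Mmp16*, a membrane-type matrix metalloproteinase, stood at 1749, 1962 and 1776 CPM in OPC-like and at 1588, 1504 and 1628 CPM in proliferating-like nuclei, with no overlap. *Lnx1*, a ubiquitin ligase with the cell-fate protein Numb among its targets, stood at 235, 214 and 262 CPM and at 156, 149.7 and 179 CPM in these classes, also with no overlap. Per kilobase of gene span, the scale on which members can be set against each other, the OPC-like medians fell in the order *Lhfpl3* (28.2 CPM per kb), *Pdgfra* (17.1), *Nxph1* (14.9), *Xylt1* (10.4), *Mmp16* (6.67), *Cspg4* (5.75), *Megf11* (2.85), *Pcdh15* (2.45), *Calcrl* (2.25) and *Lnx1* (2.13). This scale takes the whole span as the source of reads, which a kit that primes at 3′ ends and in introns meets in part. The OPC-like median was 8.57 to 45.5 times the oligodendrocyte-like one, with *Pdgfra* at the upper end.

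**Figure D1:**
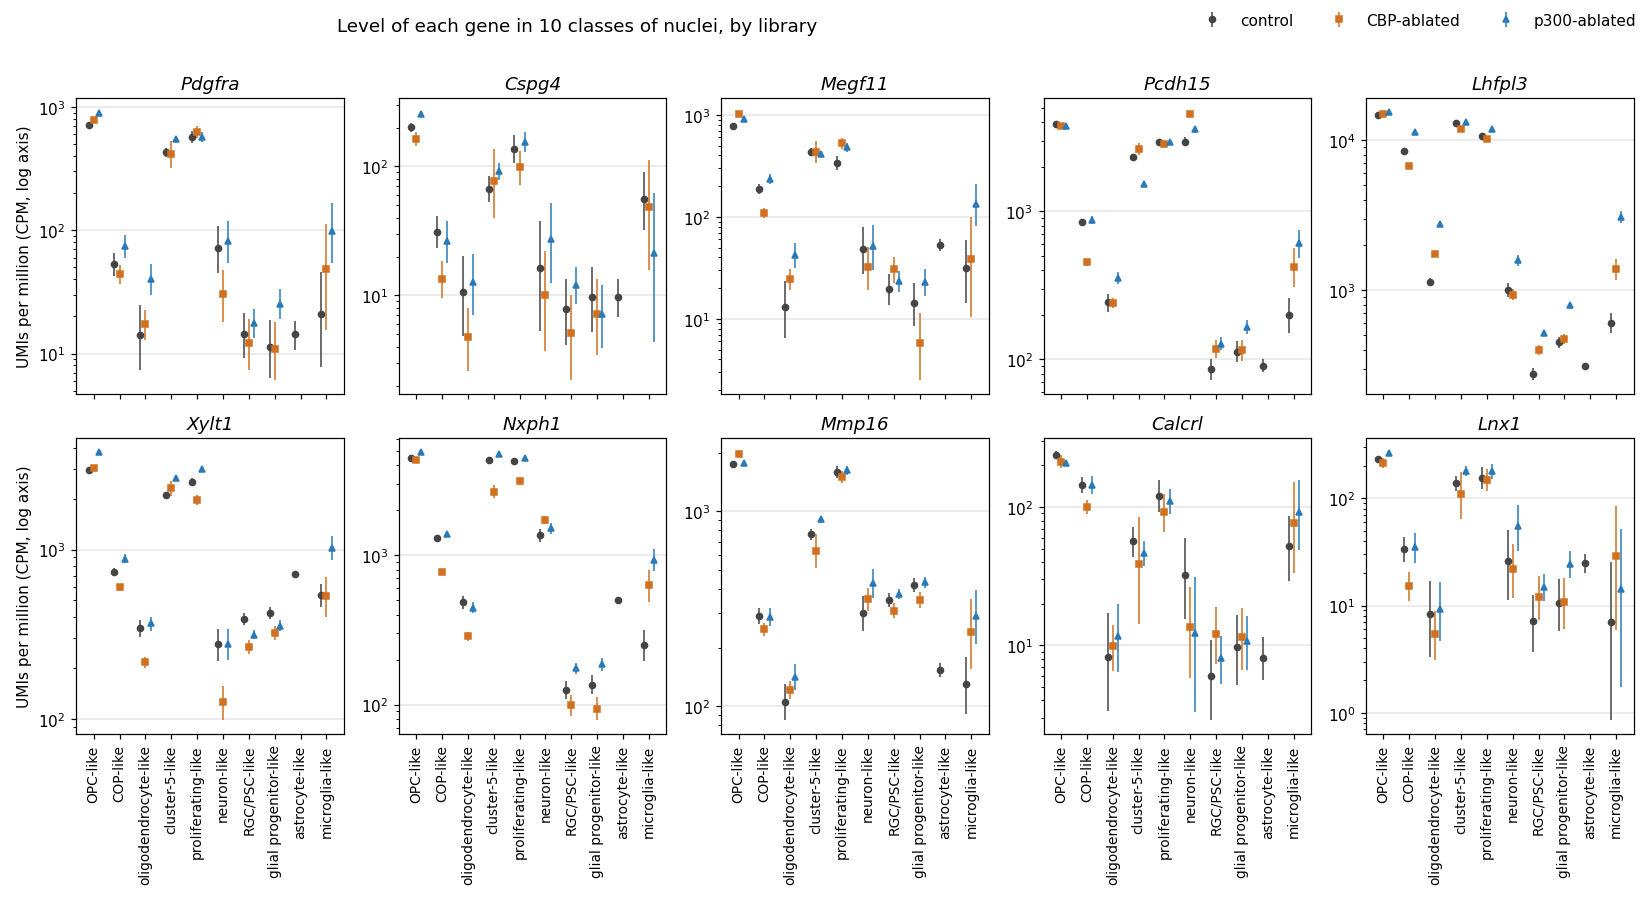
Level of each of the 10 genes in each of the 10 named classes of nuclei, in CPM on a log axis, with 1 point for each library that has nuclei of the class and 95% counting intervals as bars. Unnamed clusters are not shown. The OPC-like points are the highest or among the highest in every panel, and *Pdgfra* falls from 719.8 to 14.2 CPM between OPC-like and oligodendrocyte-like nuclei of the control library.

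Detection in single nuclei was compared after thinning to 1500 UMIs, and nuclei with fewer UMIs were left out. These were 11, 2 and 27 OPC-like and 119, 53 and 23 microglia-like nuclei of the control, CBP-ablated and p300-ablated libraries. Microglia-like nuclei, taken here to lack these genes, served as the measure of background, and free RNA and doublets were not told apart in it. That they lack all 10 was not tested. *Calcrl* stood at 52.6 to 92.3 CPM in them, against 8.29 to 11.8 CPM in oligodendrocyte-like nuclei. *Pdgfra* had a UMI in 60.1%, 63.2% and 68.2% of OPC-like nuclei of the control, CBP-ablated and p300-ablated libraries (81.2%, 83.5% and 89.2% before thinning). In microglia-like nuclei the thinned shares were 3.12%, 4.55% and 10%, over 64, 22 and 30 nuclei. *Cspg4* was found in 24.5%, 21.1% and 30.9% of OPC-like nuclei, against 7.81%, 18.2% and 6.67% of microglia-like ones. In the CBP-ablated library its OPC-like share could not be told from that of the 22 microglia-like nuclei, 18.2% (5.19 to 40.3). Other classes of that library were lower. *Cspg4* was found there in 1.03% (0.335 to 2.38) of oligodendrocyte-like, 1.99% (1.03 to 3.45) of COP-like and 13.5% (7.77 to 21.3) of proliferating-like nuclei. *Lhfpl3* was found in nearly all OPC-like nuclei (99.9%, 100% and 100%), but also in 48.4%, 63.6% and 83.3% of microglia-like nuclei, so a UMI of this gene did not by itself mark an OPC-like nucleus. Median depth before thinning, with the nuclei left out included, was 3236, 3445 and 3807 UMIs in OPC-like nuclei. In microglia-like nuclei it was 1134, 1010 and 1664 UMIs.

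An OPC-like nucleus held a UMI of 7 of the 10 genes at the median in each library, with quartiles of 6 and 8. Proliferating-like nuclei held 6 in each library, and nuclei of cluster 12 in the CBP-ablated library also 6. COP-like nuclei held 3, 2 and 3, cluster-5-like nuclei 5 in each library, oligodendrocyte-like nuclei 1, 1 and 2, and microglia-like nuclei 2, 3 and 2.5. The share of OPC-like nuclei with at least 8 of the genes was 25.1%, 26% and 30.3%. It was 11.2%, 11.7% and 11.9% in proliferating-like nuclei and 19% in cluster 12 of the CBP-ablated library. Over all nuclei that share was 6.88%, 5.95% and 13.2%, so it was highest in the p300-ablated library. *Pdgfra* and *Cspg4* were found together in 14.8%, 16.1% and 21.9% of OPC-like nuclei and 4.44%, 3.83% and 10.1% of all nuclei of that depth. At least one of the pair was found in 69.9%, 68.3% and 77.2% of OPC-like nuclei, which leaves OPC-like nuclei with neither transcript at this depth in every library. The same held for 59.5%, 64% and 61.9% of proliferating-like nuclei and 69.3% of cluster 12 nuclei of the CBP-ablated library, which carried at least one of the pair.

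**Figure D2:**
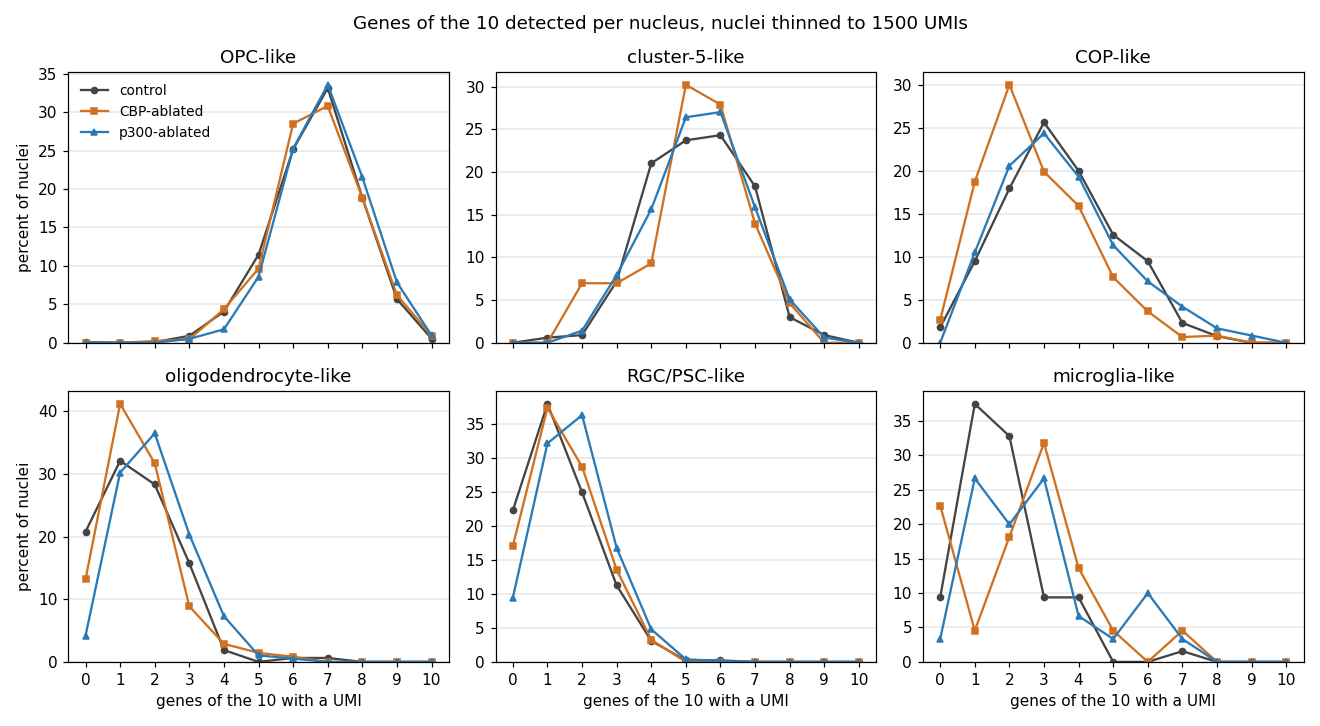
Number of the 10 genes with a UMI in a nucleus thinned to 1500 UMIs (x axis) against the percentage of nuclei (y axis), with 1 panel for each class and 1 line for each library. OPC-like nuclei peak around 7 genes in all 3 libraries, and oligodendrocyte-like nuclei at 1 or 2.

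Summed over whole libraries, the genes were lower in the CBP-ablated and higher in the p300-ablated library than in the control. The median log2 ratio of the 10 genes was −0.28 (median of the interval bounds −0.38 to −0.19) for the CBP-ablated library, against 0.058 over the 11883 genes with at least 100 UMIs in both libraries together. For the p300-ablated library it was 0.63 (median of the interval bounds 0.60 to 0.65), against −0.035 over 12247 genes. Both comparisons use the same control library, so they are not independent. In a whole-library sum, fewer cells of a type and less RNA per cell cannot be told apart. No member was lower by at least 1 log2 unit in the CBP-ablated library, where 3.99% of all genes were, and none was higher by as much, where 2.89% were. At 0.5 log2 units 4 members were lower (*Cspg4*, *Lnx1*, *Xylt1* and *Nxph1*), against 12.2% of all genes. In the p300-ablated library no member was higher by 1 log2 unit (0.694% of all genes) or lower by 1 (2.12%), but 8 of the 10 were higher by at least 0.5, against 6.01% of all genes. The exceptions were *Pcdh15* and *Calcrl*. The 10 genes mark the same class and were chosen with earlier results of these data known. They are thus not independent draws to set against such shares, here or further on. The CBP median was nearer to 0 after thinning to 1500 UMIs without shallower nuclei (−0.085) or with every nucleus given equal weight (−0.061). The p300 median was 0.67 and 0.68 in these settings.

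Of the receptors and NG2, *Pdgfra* stood at 236 CPM (control), 199 CPM (CBP-ablated) and 448 CPM (p300-ablated). The p300-ablated library was the high one, with a log2 ratio of 0.93 (0.87 to 0.98) to the control, and the CBP-ablated library was the lowest, at −0.24 (−0.32 to −0.17). *Cspg4* stood at 67.4, 37.1 and 122 CPM. It was the member lowest in the CBP-ablated library relative to the control, at −0.86 (−1.02 to −0.71), and among the highest in the p300-ablated one, at 0.86 (0.75 to 0.96). *Calcrl* stood at 84.5, 67.9 and 103 CPM, with the smallest p300 ratio of the 10 members, 0.29 (0.19 to 0.39). Its ratio in the CBP-ablated library was −0.32 (−0.44 to −0.19), between those of *Pdgfra* and *Cspg4*.

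Of the secreted and adhesion proteins, *Nxph1* stood at 1863, 1235 and 2799.9 CPM, with ratios of nearly equal size and opposite sign, −0.59 (−0.62 to −0.57) for CBP and 0.59 (0.57 to 0.61) for p300. *Lhfpl3* stood at 5908, 5244 and 9071 CPM, lower by little in the CBP-ablated library, at −0.17 (−0.19 to −0.16), and higher in the p300-ablated one, at 0.62 (0.61 to 0.63). *Pcdh15* stood at 1407, 1217 and 1939.7 CPM, with ratios of −0.21 (−0.24 to −0.18) and 0.46 (0.44 to 0.49). *Megf11* differed from the rest, since its level in the CBP-ablated library could not be told from the control by counting error. It stood at 268, 262 and 445 CPM, with a CBP ratio of −0.035 (−0.10 to 0.031) and a p300 ratio of 0.73 (0.68 to 0.78).

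Of the enzymes, *Xylt1* stood at 1322, 862 and 2065 CPM, with ratios of −0.62 (−0.65 to −0.58) and 0.64 (0.62 to 0.67). *Lnx1* stood at 85.1, 52.2 and 137 CPM and followed the same order of libraries, at −0.70 (−0.84 to −0.57) and 0.69 (0.60 to 0.79). *Mmp16* stood at 686, 619 and 1012 CPM and was nearer to the control in the CBP-ablated library, at −0.15 (−0.19 to −0.11), than in the p300-ablated one, at 0.56 (0.53 to 0.59). Set directly against the p300-ablated library, the CBP-ablated library was lower for all 10 members, from −1.72 for *Cspg4* to −0.61 for *Calcrl*. There 5 members were lower by at least 1 log2 unit (*Pdgfra*, *Cspg4*, *Xylt1*, *Nxph1* and *Lnx1*), against 2.57% of all genes.

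**Figure D3:**
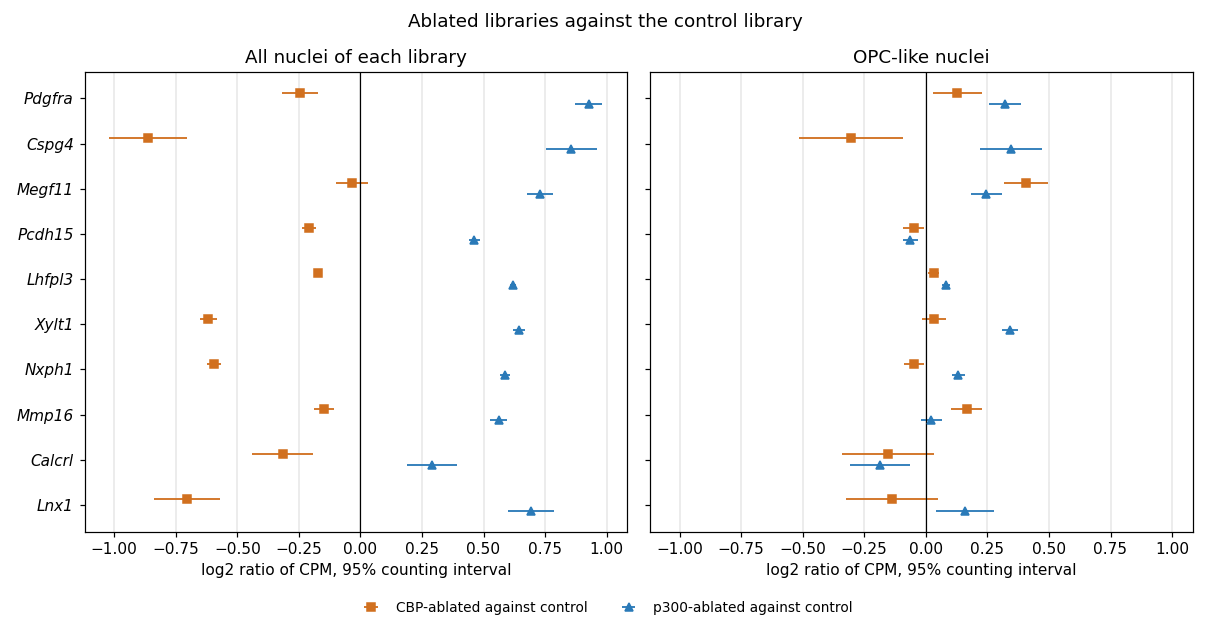
Log2 ratio of each gene to the control for the CBP-ablated (squares) and p300-ablated (triangles) libraries, over all nuclei (left) and over OPC-like nuclei (right), with 95% counting intervals as bars and a line at 0. Over all nuclei the squares lie left of 0 and the triangles right of it, while over OPC-like nuclei all points lie within 0.5 of 0.

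The UMIs of these genes came from different classes in the 3 libraries. OPC-like nuclei gave 56.6%, 37.7% and 65.5% of all UMIs of the 10 genes, while they held 22.6%, 12.1% and 36.9% of the UMIs of the libraries. COP-like nuclei gave 10.4%, 20.6% and 5.24%, cluster-5-like nuclei 14.4%, 2.62% and 14.3% and proliferating-like nuclei 5.86%, 7.89% and 6.26%. These sums weigh *Lhfpl3* most, which gave 53863 of the 110179 UMIs in control OPC-like nuclei. In CBP-ablated COP-like nuclei it gave 19010 of 25675. Gene by gene, the COP-like share in the CBP-ablated library ran from 4.93% for *Pdgfra* to 32.7% for *Calcrl*, with 28.4% for *Lhfpl3*. In the CBP-ablated library unnamed cluster 12 gave 14.6%, and less than 1% in either of the others. *Pdgfra* was drawn largely from OPC-like nuclei in the control, at 69% of its UMIs, against 47.9% and 74.1%. *Pcdh15* drew 3.98%, 17.5% and 3.22% of its UMIs from neuron-like nuclei, so its CBP-ablated total came in part from outside the oligodendrocyte classes.

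Because the astrocyte-like class was found in the control library alone, the whole-library ratios were recomputed without it. In the control the class held 24.1% of all UMIs but 3.8% of the UMIs of the 10 genes, from 1.26% for *Lhfpl3* to 13.1% for *Xylt1*. Leaving it out thus raises the control CPM of each of the 10 genes by arithmetic. The median became −0.65 for the CBP-ablated and 0.34 for the p300-ablated library, and *Cspg4* then reached −1.21 in the CBP comparison. *Calcrl* turned to −0.073 in the p300 comparison. The median of all genes was not recomputed without the class, so these shifts have no background to be read against. When, still without the astrocyte-like class, the class levels of each library were weighted by the control's share of UMIs per class, the medians were −0.049 and 0.19. At that composition *Megf11* was at 0.29, *Pdgfra* at 0.12 and *Mmp16* at 0.055 in the CBP comparison, all of opposite sign to the whole library. In the p300 comparison *Calcrl* (−0.13) and *Pcdh15* (−0.058) had the opposite sign.

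**Figure D4:**
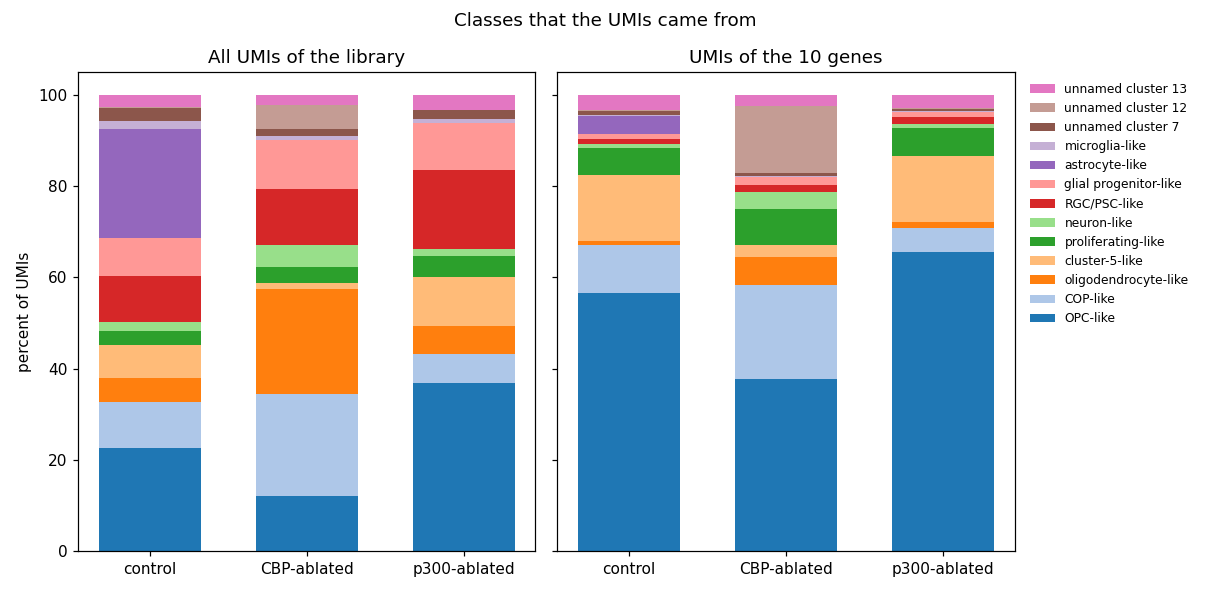
Percentage of UMIs that came from each class of nuclei, stacked, for the 3 libraries, over all UMIs (left) and over the UMIs of the 10 genes together (right). OPC-like nuclei give the largest share of all 10 genes together in each library (56.6%, 37.7% and 65.5%), and unnamed cluster 12 is visible in the CBP-ablated library alone. The sums on the right weigh *Lhfpl3* most.

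Within OPC-like nuclei all 10 genes were less than 0.5 log2 units from the control in both ablated libraries. The median log2 ratio was −0.007 (median of the interval bounds −0.052 to 0.052) for the CBP-ablated library, against 0.088 over the 5930 genes with 100 UMIs. For the p300-ablated library it was 0.14 (median of the interval bounds 0.085 to 0.22), against 0.0061 over 7988 genes. No member was higher by 0.5 log2 units in CBP-ablated OPC-like nuclei (6.31% of all genes) or lower by as much (5.60%). None was higher (3.52%) or lower (3.98%) by 0.5 in p300-ablated OPC-like nuclei either. The CBP median depended on which nuclei were taken as OPC-like. It was −0.17 with each library clustered by itself and −0.48 with COP-like, cluster-5-like and cluster 12 nuclei joined to the class, where the p300 median was 0.34.

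*Cspg4*, at the OPC-like levels given above, was the member furthest below the control in CBP-ablated OPC-like nuclei, at −0.30 (−0.51 to −0.094), and it was higher in p300-ablated ones, at 0.35 (0.22 to 0.47). *Pdgfra* was higher in both, at 0.13 (0.029 to 0.23) and 0.32 (0.26 to 0.39). Its low whole-library level in the CBP-ablated library was thus not seen within the class as clustered here. That CBP ratio stands beside a median of all genes of 0.088, and it ran from −0.37 to 0.29 over the processing settings described below. *Calcrl* was the one of these on the low side of the control in both, at −0.15 (−0.34 to 0.032) and −0.19 (−0.31 to −0.064), with 0 inside the first interval. *Megf11* was the member furthest above the control in CBP-ablated OPC-like nuclei, at 0.41 (0.32 to 0.50), and was at 0.25 (0.18 to 0.31) in p300-ablated ones.

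For *Lhfpl3*, *Pcdh15* and *Nxph1* the OPC-like ratios lay within a narrow band around 0 in the clustering used here. They were 0.033 (0.010 to 0.055), −0.050 (−0.094 to −0.0062) and −0.047 (−0.088 to −0.0056) in the CBP comparison and 0.081 (0.066 to 0.096), −0.063 (−0.092 to −0.033) and 0.13 (0.10 to 0.16) in the p300 comparison. *Lhfpl3* changed sign in the CBP comparison when ratios were centred on the median of all genes, to −0.055. Over the processing settings described below, the CBP ratios ran from −0.33 to 0.040 for *Lhfpl3*, −0.59 to 0.034 for *Pcdh15* and −0.71 to −0.026 for *Nxph1*. Among the enzymes, *Xylt1* was level with the control in CBP-ablated OPC-like nuclei, at 0.033 (−0.017 to 0.083), and higher in p300-ablated ones, at 0.34 (0.31 to 0.38). *Mmp16* showed the reverse, at 0.17 (0.10 to 0.23) and 0.022 (−0.022 to 0.066). *Lnx1* was at −0.14 (−0.32 to 0.048) and 0.16 (0.041 to 0.28), with 0 inside the first interval.

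Markers of other cell types that can carry *Pdgfra*, *Cspg4* or *Calcrl* were read in the same nuclei. The 5 fibroblast markers summed to at most 3 UMIs in OPC-like nuclei of any library, with *Lum* at 0 in all of them. The 5 mural cell markers summed to 2.71, 3.24 and 2.58 CPM there, with *Kcnj8* at 0 in every whole library. The 5 endothelial markers summed to 35.8, 42.7 and 28.6 CPM, nearly all of it *Tek*, with *Cldn5* at 0 in every whole library. Markers of the named classes were not flat. The oligodendrocyte-like list summed in OPC-like nuclei to 67.5, 258 and 74.3 CPM, highest in the CBP-ablated library. The COP-like (1433, 1613 and 1337 CPM) and proliferating-like (43.4, 76.4 and 39.7 CPM) lists were also highest there. Lowest there were the astrocyte-like list, at 1573, 761 and 1623 CPM, and the cluster-5-like list, at 2763, 2337 and 2937 CPM. So was the class's own naming list, at 21626.5, 18828.4 and 23222.5 CPM. The neuron-like list was lower in both ablated libraries, at 7117, 5460.5 and 5398 CPM. Their part in the OPC-like ratios was not tested.

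Along the path from OPC-like to oligodendrocyte-like nuclei the members were lower from different steps on. *Pdgfra* was already at 9.34%, 6.84% and 8.57% of its OPC-like level in the *Bmp4*-led COP-like cluster, in the control, CBP-ablated and p300-ablated libraries. *Cspg4* was at 18.7%, 12.3% and 12.2% and *Lnx1* at 18.3%, 9.91% and 13.9% in that cluster. *Calcrl* was still at 79.5%, 73.5% and 82.9% there and at 1.09%, 9.52% and 17.9% in the *Enpp6*-high cluster, so it was the member nearest to its OPC-like level in the former and far from it in the latter. The *Enpp6*-high values rest on few UMIs, 1, 24 and 9 for *Calcrl*. *Lhfpl3* was lower by degrees, with 64.1%, 57.4% and 79.2% in the *Bmp4*-led cluster, 38.5%, 27.4% and 50.5% in the *Enpp6*-high cluster and 7.77%, 11.7% and 17.7% in oligodendrocyte-like nuclei. The remaining members lay between 16.3% and 35.2% in the *Bmp4*-led cluster. In oligodendrocyte-like nuclei all 10 were between 1.68% and 17.7% of the OPC-like level.

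In COP-like nuclei the genes were lower in the CBP-ablated library than in the control. The median log2 ratio of the 10 genes to the control was −0.65 (median of the interval bounds −0.82 to −0.43) in CBP-ablated COP-like nuclei, against 0.12 over 5427 genes, and 0.069 (median of the interval bounds −0.037 to 0.40) in p300-ablated ones. *Nxph1* stood at 1305, 771 and 1381 CPM, with a CBP ratio of −0.76 (−0.84 to −0.67). *Pcdh15* stood at 845, 452 and 879 CPM, at −0.90 (−1.01 to −0.79). *Lhfpl3* stood at 8495, 6702 and 11323 CPM, at −0.34 (−0.37 to −0.31) in the CBP and 0.41 (0.38 to 0.45) in the p300 comparison. All 10 CBP ratios were below 0, and that of *Pdgfra*, −0.26 (−0.67 to 0.15), had 0 inside its interval. Of the 8 members with 100 UMIs none was lower by 1 log2 unit, against 1.90% of all genes. *Cspg4* and *Lnx1*, at −1.22 (−1.86 to −0.59) and −1.15 (−1.76 to −0.55), had fewer than 100 UMIs. The COP-like class of the CBP-ablated library held more of the *Enpp6*-high cluster, 226 nuclei beside 386 of the *Bmp4*-led one, against 78 beside 316 in the control. Within the *Bmp4*-led cluster alone the CBP median was −0.41 (median of the interval bounds −0.72 to −0.17), with *Xylt1* at 0.044 and 0 inside 3 intervals. In the *Enpp6*-high cluster *Mmp16* stood at 87.8 CPM (control) and 147 CPM (CBP-ablated), and *Pcdh15* at 181 and 193.5 CPM. *Pdgfra*, *Megf11*, *Calcrl* and *Lnx1* were also higher in the CBP-ablated library there, from few UMIs. *Lhfpl3* (5631 and 4090 CPM), *Xylt1* (359 and 204 CPM), *Nxph1* and *Cspg4* were lower. That a difference between COP-like and OPC-like ratios exceeds the spread between cultures was not tested.

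In oligodendrocyte-like nuclei the levels were low and the counts small. *Lhfpl3* stood at 1135, 1743 and 2741 CPM, from 958, 5139 and 3253 UMIs, with ratios of 0.62 (0.52 to 0.72) and 1.27 (1.17 to 1.38). It was the only 1 of the 5 members with 100 UMIs that was higher by at least 1 log2 unit in the p300 comparison, against 1.59% of all genes. *Lhfpl3* was also found in microglia-like nuclei, at 607, 1379 and 3087 CPM, with the same order of libraries. *Pdgfra* stood at 14.2, 17.3 and 40.4 CPM in oligodendrocyte-like nuclei, from 12, 51 and 48 UMIs, and at 21.1, 48.2 and 99.4 CPM in microglia-like ones. Levels in microglia-like nuclei followed the same order of libraries for both genes, and the part of free RNA in them was not tested.

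**Figure D5:**
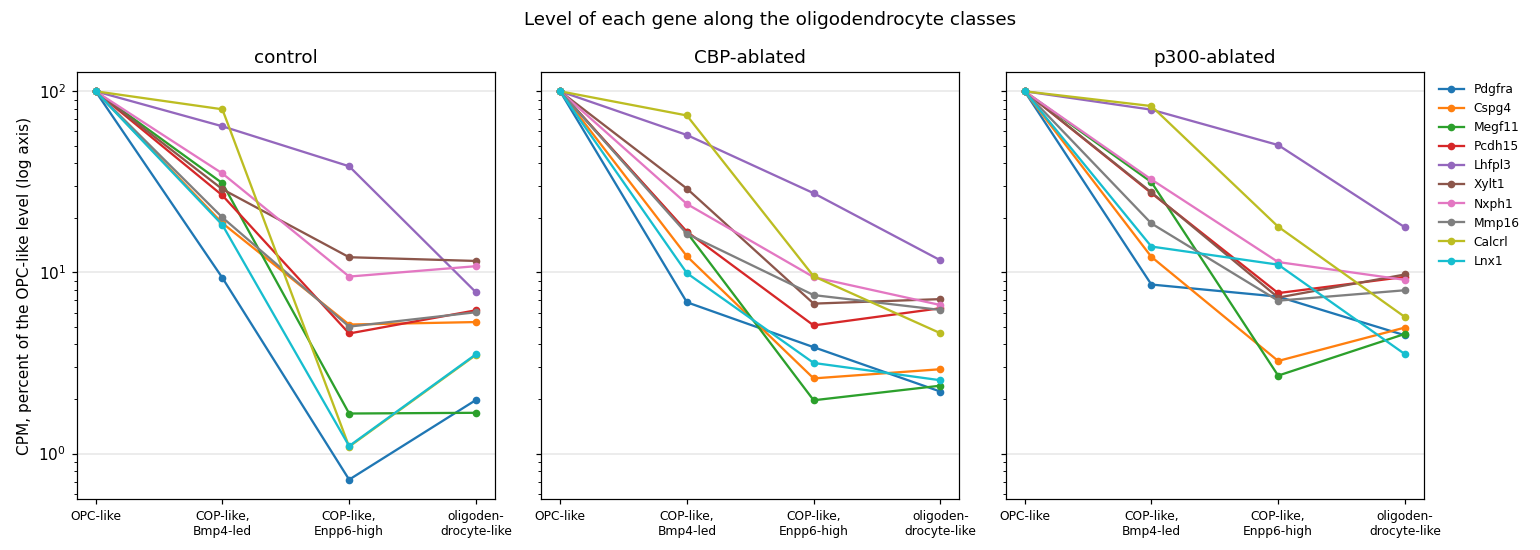
Level of each gene in the *Bmp4*-led and *Enpp6*-high COP-like clusters and in oligodendrocyte-like nuclei, as a percentage of its OPC-like level in the same library (log axis), with 1 panel for each library and 1 line for each gene. *Calcrl* starts at 79.5%, 73.5% and 82.9% and *Pdgfra* at 9.34%, 6.84% and 8.57% in the *Bmp4*-led cluster of the control, CBP-ablated and p300-ablated libraries.

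Genes that work with the members were taken from a list of 61 ligands, partners, relatives and chromosomal neighbours. In whole libraries 42 of the 61 had 100 UMIs. Of these 8 had an interval above 0 and 21 below 0 in the CBP comparison, and 17 above and 10 below in the p300 comparison. Their medians were −0.19 and 0.020, against 0.058 and −0.035 over all genes with 100 UMIs. In OPC-like nuclei 5 of 25 lay above and 8 below 0 in the CBP comparison, and 9 of 34 above and 4 below in the p300 comparison, and none was 1 log2 unit away in either direction. These intervals cover counting error only and call no gene changed. The share of all genes whose interval left out 0 is not given here, so the counts have no background to be read against.

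Ligands and coreceptors are given first. *Pdgfa*, the ligand of the receptor on OPCs, stood at 20.8, 27 and 24.7 CPM in whole libraries, higher in both ablated libraries, at 0.37 (0.15 to 0.59) and 0.24 (0.039 to 0.45). *Pdgfc*, another ligand of that receptor, stood at 42.9, 70.6 and 40.6 CPM in OPC-like nuclei, highest in CBP-ablated ones at 0.72 (0.35 to 1.08). *Ramp1*, the coreceptor that lets the product of *Calcrl* bind calcitonin gene-related peptide, stood at 21.1, 9.33 and 21.6 CPM in whole libraries and was low in the CBP-ablated one, at −1.18 (−1.49 to −0.87). In OPC-like nuclei it had 47 UMIs in the control and 12 in the CBP-ablated library. Its ratio there was −0.71 (−1.76 to 0.22), with 0 inside the interval.

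*Nrxn3* and *Nrxn2* encode partners of the *Nxph1* product. *Nrxn3* stood at 3009.8, 1739.6 and 3153 CPM in OPC-like nuclei, at −0.79 (−0.85 to −0.73). *Nrxn2* stood at 459.7, 369 and 569 CPM there, low in CBP-ablated nuclei, at −0.32 (−0.46 to −0.18), and high in p300-ablated ones, at 0.31 (0.23 to 0.39). *Nxph1* itself was at −0.047 (−0.088 to −0.0056) in CBP-ablated OPC-like nuclei, so its ratio was not of the size of theirs.

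Chondroitin sulfate genes, which build on the product of *Xylt1*, were mixed. *Vcan*, the core protein of versican and one of the OPC-like naming markers, stood at 1190.1, 835 and 1345 CPM in OPC-like nuclei, with a CBP ratio of −0.51 (−0.60 to −0.42). *Csgalnact1*, which begins the chondroitin chain, stood at 179, 121 and 148 CPM, at −0.57 (−0.81 to −0.33). *Chst11*, a chondroitin sulfotransferase, was higher in both ablated libraries, at 2209, 2665 and 2547 CPM, with ratios of 0.27 (0.22 to 0.33) and 0.21 (0.17 to 0.24). Of the metalloproteinases and their inhibitors, *Mmp14* stood at 10.7, 6.82 and 4.87 CPM in whole libraries, low in the p300-ablated one at −1.13 (−1.51 to −0.76). In OPC-like nuclei it had only 4, 3 and 7 UMIs. *Timp4* stood at 22.1, 8.86 and 16.9 CPM in whole libraries, low in the CBP-ablated one at −1.32 (−1.63 to −1.01), but its CBP ratio in OPC-like nuclei was −0.20 (−0.81 to 0.38), with 0 inside the interval. *Numb*, whose protein is a target of the *Lnx1* ligase, stood at 199, 141 and 196 CPM in OPC-like nuclei, with a CBP ratio of −0.50 (−0.72 to −0.28).

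*Lnx1* and *Pdgfra* lie on the same stretch of chromosome 5, 449.379 kb apart, with *Chic2* and *Gsx2* between them. Their enrichment in OPC-like nuclei was compared with that of the genes around them, over nuclei outside the OPC-like, cluster-5-like and proliferating-like classes and clusters 12 and 13. *Pdgfra* was 26.7, 25.8 and 21.5 times as high in OPC-like nuclei in the control, CBP-ablated and p300-ablated libraries, and *Lnx1* 11.5, 17.9 and 11.7 times. *Scfd2*, on the far side of *Lnx1*, was 5.86, 4.97 and 4.32 times as high. *Fip1l1*, which overlaps *Lnx1* by 6354 bases on the opposite strand, was 2.72, 2.72 and 2.88 times as high, and *Kit*, beyond *Pdgfra*, 4.47, 2.15 and 3.2 times. *Chic2*, between the members, was 1.32, 1.51 and 1.41 times as high, and *Gsx2* had at most 1 UMI in OPC-like nuclei of any library. The pair of members was chosen as OPC markers, and the classes next highest in *Pdgfra* were left out of the comparison, and their larger ratios follow from that choice and are a description only.

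Over the 28 sums of nuclei by class and library with at least 20000 UMIs, the log levels of the 10 genes ran together, with Pearson correlations of 0.563 (*Pcdh15* and *Xylt1*) to 0.945 (*Pdgfra* and *Megf11*) between pairs. These points share libraries and depth, so the correlations are descriptions without a test. Of the 13121 other genes compared, the mean pattern of the 10 was most like that of *Neto1* (0.974), *Sgcz* (0.95), *Nova1* (0.942), *Kcnd2* (0.934) and *Abhd2* (0.933). The pattern of *Pdgfra* alone was most like that of *Neto1* (0.963), *Sgcz* (0.954), *Kcnd2* (0.941), *Rev3l* (0.938) and *Elavl4* (0.935).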

How the data were processed

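Single-nucleus RNA was measured in 3 libraries, 1 per condition, from differentiated mouse neurospheres. The deposited values are UMI counts of genes by nuclei, which the authors made with Cell Ranger 3.1 against GRCm38 per the submitters' processing notes, which also name Seurat 2.3.4. Exon and intron reads were counted together, the strand setting is not given in the sources used here, and the deposited tables hold nuclei with at least 500 UMIs. Counts were used as deposited, without a further filter on nuclei.

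The 10 genes and the marker and partner lists were chosen with earlier results of these data known. The text names all 10 genes and, of the partner genes, those with at least 100 UMIs in the libraries compared that serve as examples of their role, picked after their values were seen. Nuclei of the 3 libraries were merged and clustered in Seurat 5.3.0 (R 4.3.3, Matrix 1.6.5) on 1610 variable genes without the 10 genes, with 20 principal components, 30 neighbours, Louvain resolution 0.6 and seed 1. A cluster took a class name when at least 60% and at least 3 of that class's markers had a UMI in 10% of its nuclei at 2 times the level of other nuclei. Counts were summed per library and class in Python 3.11.15 (numpy 2.4.6, scipy 1.17.1, pandas 2.3.3), scaled to CPM, and compared as log2 ratios with conditional binomial 95% intervals. Levels carry exact Poisson intervals in the calculation and shares exact binomial (Clopper-Pearson) ones. UMIs limit counts of amplified copies, but no interval covers variation between cultures. Doublets were kept, and leaving out those called by Scrublet in scanpy 1.11.5 was an alternative. Interval calculations were tested on counts simulated from the counting model that they assume. This checks the calculation and not the spread between nuclei or cultures. Figures were drawn with matplotlib 3.10.9. Of the partner list, 1 gene with values is not reported here by name.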

Additional observations from a re-analysis of the deposited data

Results flagged for a closer look

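In 4 genes the ratio to the control lay on opposite sides of 0 in 2 classes of the oligodendrocyte lineage. Counting intervals left out 0 in both classes, and in each case the difference between classes was not tested. The share of all genes that meet this rule is not given here, so the count of 4 has no background. At high counts such an interval leaves out 0 even for a small ratio. For *Megf11* in the CBP comparison the log2 ratio was 0.41 (0.32 to 0.50) in OPC-like and −0.80 (−1.03 to −0.57) in COP-like nuclei. For *Mmp16* it was 0.17 (0.10 to 0.23) and −0.23 (−0.40 to −0.057) in the same classes. For *Lhfpl3* it was 0.033 (0.010 to 0.055) in OPC-like, −0.34 (−0.37 to −0.31) in COP-like and 0.62 (0.52 to 0.72) in oligodendrocyte-like nuclei. For *Pcdh15* in the p300 comparison it was −0.063 (−0.092 to −0.033) in OPC-like and 0.55 (0.31 to 0.80) in oligodendrocyte-like nuclei. The COP-like ratios pool 2 clusters that the libraries held in different proportions. In the CBP-ablated library *Mmp16* stood at 321 CPM in the *Bmp4*-led cluster (control 352) and 147 CPM in the *Enpp6*-high one (control 87.8). *Megf11* stood at 171 (control 241) and 20.3 CPM (control 12.9), the latter from 24 and 5 UMIs. *Lhfpl3* was lower than the control in both clusters. The OPC-like CBP ratio of *Lhfpl3* was below the median of all genes in OPC-like nuclei, 0.088. Over the processing settings described below, the OPC-like ratio took both signs for each of the 4 genes. In the CBP comparison it ran from −0.33 to 0.040 for *Lhfpl3*, −0.25 to 0.35 for *Mmp16* and −0.066 to 0.60 for *Megf11*. For *Pcdh15* in the p300 comparison it ran from −0.12 to 0.063.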

How the results depend on the processing

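No paired analysis was possible because each condition has 1 library. With 1 library per condition there was also no replicate to leave out. For the whole-library CBP comparison the median log2 ratio of the 10 genes, −0.28, became −0.085 after thinning to 1500 UMIs and −0.061 as a mean over nuclei. It became −0.65 without the astrocyte-like class, which held 24.1% of all control UMIs, and −0.049 at the control composition, which also leaves out that class. The count of members at least 1 log2 unit away from the control went from 0 to 1 without the astrocyte-like class and to 4 at a threshold of 0.5. Genes whose interval held 0 are not counted as reversals, although *Megf11* changed sign here (0.22 thinned, 0.19 as a mean over nuclei, 0.29 at the control composition), as did *Xylt1* in OPC-like nuclei (−0.055 when centred, down to −0.55 with classes joined) and, near 0, *Calcrl* and *Mmp16*. Reversals in this comparison were *Pdgfra* (0.027 thinned, 0.12 at the control composition), *Mmp16* (0.015 thinned, 0.049 as a mean over nuclei, 0.055 at the control composition) and *Lhfpl3* (0.0020 as a mean over nuclei). For the p300 comparison the median, 0.63, became 0.67 when centred on all genes, 0.67 thinned, 0.68 as a mean over nuclei, 0.34 without the astrocyte-like class and 0.19 at the control composition, and the count went from 0 to 8 at a threshold of 0.5. *Calcrl* reversed without the astrocyte-like class (−0.073) and at the control composition (−0.13), as did *Pcdh15* at the latter (−0.058). Within OPC-like nuclei the CBP median, −0.0070, became −0.095 when centred, −0.081 at resolution 1.2, −0.17 with each library clustered by itself and −0.065 with nuclei assigned by marker score. There *Lhfpl3* reversed when centred (−0.055), at resolution 1.2 (−0.010), with libraries clustered alone (−0.10) and by marker score (−0.0032), *Pcdh15* at resolution 0.3 (0.034) and *Mmp16* at resolution 1.2 (−0.12). The number of OPC-like nuclei in the CBP-ablated library ran from 182 at resolution 1.2 to 804 when it was clustered by itself, against 437. The control library held 858 and 1115 in these settings, against 1119. Further alternatives were chosen after seeing the data. Joining COP-like, cluster-5-like and cluster 12 nuclei to the OPC-like ones gave medians of −0.48 (CBP) and 0.34 (p300), with *Pdgfra* (−0.37), *Megf11* (−0.066), *Lhfpl3* (−0.33) and *Mmp16* (−0.25) reversed in the CBP and *Pcdh15* (0.063) in the p300 comparison. Joining cluster 12 alone gave a CBP median of −0.11, with *Lhfpl3* at −0.017. The causes of these shifts were not tested beyond what each alternative leaves out or reweights. Subtracting a library's own mean profile leaves whole-library ratios as they were by construction. Depth limits *Cspg4*, *Calcrl* and *Lnx1* most, since a typical nucleus holds none or few of their UMIs.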

Other observations

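Unnamed cluster 12, whose 207 nuclei in the CBP-ablated library were led by *Gpr149*, *Syt1* and *Moxd1*, carried all 10 genes. *Pdgfra* stood there at 883 CPM, against 787 in OPC-like nuclei, and *Megf11* at 1255 against 1030.4. *Mmp16* stood at 2156 CPM against 1962, and *Lhfpl3*, slightly lower, at 13270.1 against 14943. A further 6 were lower in cluster 12. *Xylt1* stood at 1826 against 3028 CPM, *Cspg4* at 95.2 against 163 and *Calcrl* at 139 against 213. *Nxph1* stood at 3412 against 4324 CPM, *Pcdh15* at 3513 against 3797 and *Lnx1* at 182 against 214. The cluster met the markers of no class, and with 9 and 2 nuclei in the other libraries its levels there cannot be compared.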
